A study of Mus musculus with 14 samples.

Results

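The mucus barrier genes of the goblet cell were followed in whole colon of mice with and without the glucocorticoid receptor (GR) in the intestinal epithelium, on regular water and during colitis. The 10 genes were chosen by name, and every array probe whose RefSeq accession maps to any of them was taken. They comprise 7 secreted mucus products (Muc2, Tff3, Fcgbp, Clca1, Zg16, Itln1 and Retnlb), the endoplasmic reticulum protein Agr2, and the transcription factors Spdef and Atoh1. Of 15540 genes with a tested probe these are 10, read by 13 probes, since Muc2 has 3 and Fcgbp has 2, and all 13 passed the filter on dim probes.

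All mice were C57BL/6 females aged 4 to 6 months on chow, and all carried floxed alleles of Nr3c1, the gene encoding GR. Flox mice kept GR and served as controls, whereas GR iKO mice also carried Villin-cre, which deletes GR in epithelial cells of the small and large intestine from development onward and leaves GR in all other cells of the colon. Mice of each genotype drank regular water (Flox n = 4, GR iKO n = 4) or water with 2.5% dextran sodium sulfate (DSS), a polymer that damages the colonic lining and brings on colitis, over 7 days (Flox n = 3, GR iKO n = 3). Total RNA of each colon was hybridised to its own 1-colour array, giving 14 arrays.

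Goblet cells arise from intestinal progenitors that switch on Atoh1, the factor required for all secretory cells of the gut, and mature under Spdef. They fill their granules with the gel-forming mucin Muc2, which is folded in the endoplasmic reticulum with the help of Agr2 and released together with Fcgbp, Clca1, Zg16 and Tff3 to build the mucus layer that keeps bacteria off the colonic surface. Itln1 and Retnlb are goblet cell products with roles in defence, a lectin that binds microbial sugars and an antibacterial resistin-like protein.

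A level below is the log2 processed signal minus the 75th percentile of its array, so that 0 is the signal of the probe at that percentile, and differences are in log2 units from limma with a spread of their own for water and DSS arrays. A gene was called at a Benjamini-Hochberg adjusted p under 0.05 over all 29523 tested probes. The 75th percentile ranged from 281 to 1053 intensity units, lowest on Flox DSS replicate 4, and the share of probes clearly over background ran from 62.6% to 71.3%. The number of arrays limits the precision of every value, and in bulk RNA fewer goblet cells and less RNA per goblet cell cannot be told apart. Nr3c1 itself (probe A_52_P138090) was at 57.3% of the Flox signal in GR iKO colons on water, with an exact two-sided permutation p of 0.0286 (4 against 4 arrays), and at 56.1% on DSS, with an exact permutation p of 0.1 (3 against 3 arrays), the smallest that these numbers of arrays allow. In limma this difference was called on water (adjusted p 0.00923) and not on DSS (adjusted p 0.0906). The water call was lost in 7 of 26 alternatives (adjusted p up to 0.293), among them the slide block, the replicate block and leaving out Flox water replicate 3, and the DSS difference ran from −1.31 to 0.38 over them. The 4 probes of Nr3c1 gave 47.6% to 57.3% on water, 1 of them (A_52_P254174) with an exact permutation p of 0.143, and 55.2% to 75.7% on DSS. Where the probe lies relative to the floxed part is not known, and GR of other colon cells adds to the signal.

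DSS lowered both transcription factors in Flox colons and Atoh1 in both genotypes, while 1 of the 7 secreted products passed the test in each genotype, a number that was 4 of 7 in Flox in the value table deposited by the authors. In Flox, 4 of the 10 genes were called, all lower on DSS (Atoh1, Spdef, Agr2 and Fcgbp), beside 47.2% of all tested probes called in either direction, 25.4% called lower and 21.8% called higher. In GR iKO, 2 of the 10 were called, both lower (Atoh1 and Itln1), beside 38.9% of all probes, 19.8% called lower and 19.1% called higher. The numbers of mucus barrier genes called were near what these shares give for 10 genes. The median difference of the 10 genes was −1.26 in Flox and −0.74 in GR iKO, against −0.09 and −0.02 over all tested probes. Without Flox DSS replicate 4, 8 of the 10 genes were called lower in Flox, and without Flox DSS replicate 1 or replicate 2 the number was 2 (Spdef and Atoh1). In the deposited value table and with normexp background correction and quantile normalization, 7 genes were called lower in Flox, these 4 with Tff3, Clca1 and Zg16. Scaling to the spike-in control spots moved the median of all probes by −2.32 (Flox) and −0.92 (GR iKO). All differences here are therefore relative to the 75th percentile of each array and say nothing of the total RNA per colon.

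**Figure D1:**
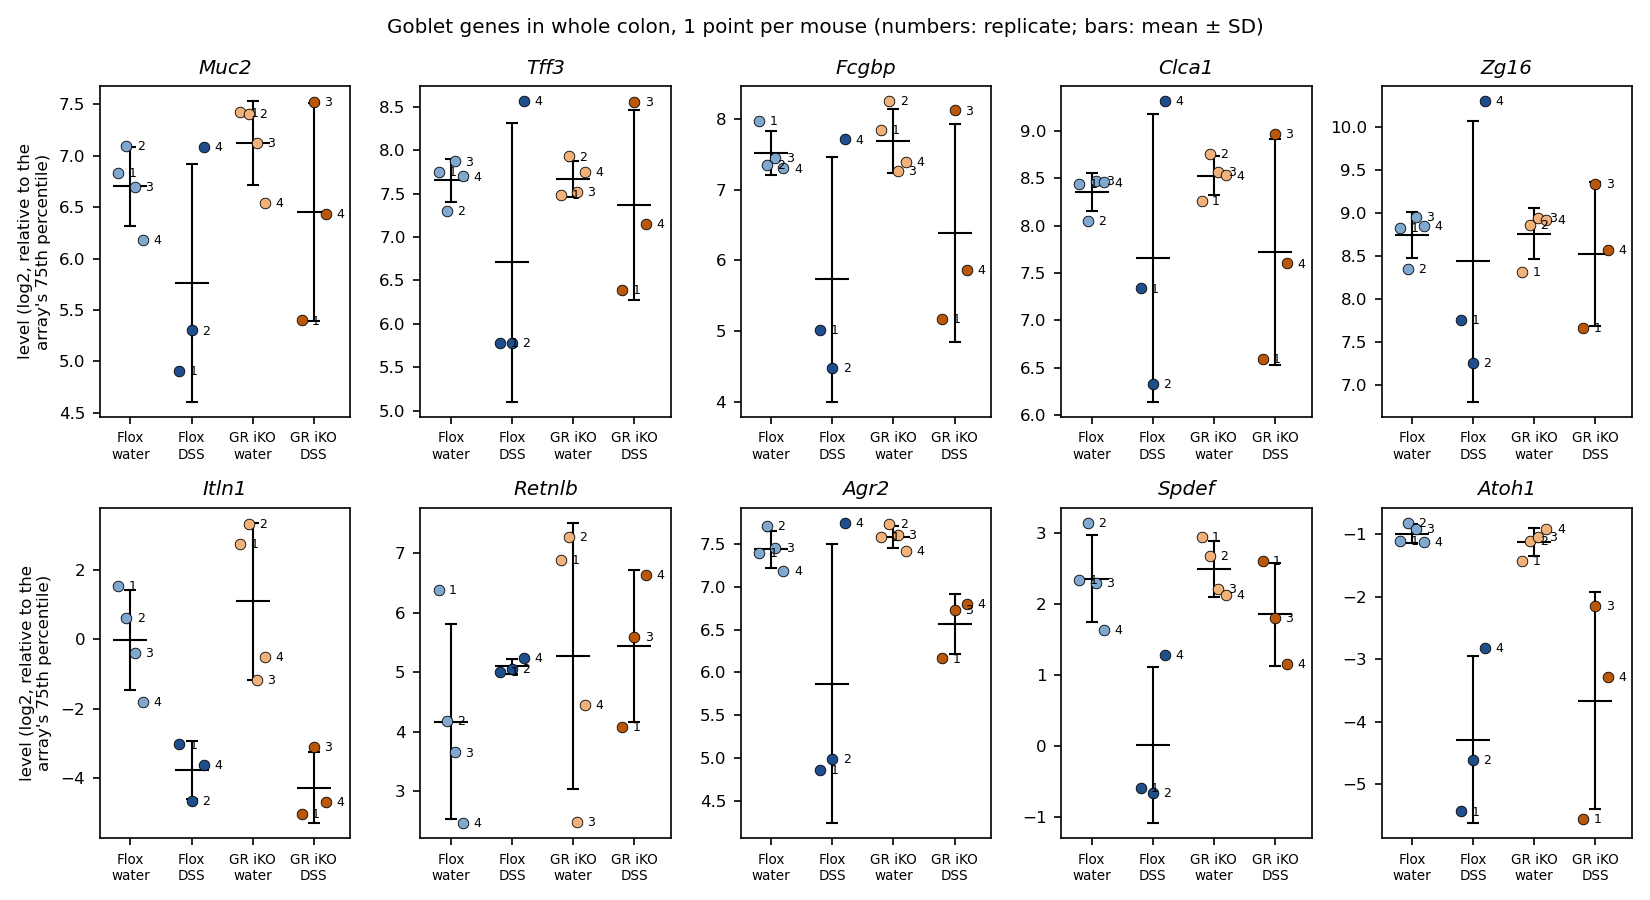
Levels of the 10 genes (vertical axis, log2 over the array's 75th percentile) in the 4 groups, 1 point per mouse with its replicate number, and bars for mean ± SD (n = 4 on water, n = 3 on DSS). Atoh1 is lower on every DSS array than on any water array, whereas Muc2, Tff3, Clca1 and Zg16 spread on DSS from below the water arrays to at or above them. Within genotype, DSS and water arrays did not overlap for 57.4% of all tested probes in Flox and 46.3% in GR iKO.

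Atoh1 (probe A_51_P383704), the factor that commits progenitors to the secretory lineage, varied little between mice on water. The 4 Flox water mice were at −1.10, −0.82, −0.92 and −1.13, and Flox DSS replicates 1, 2 and 4 at −5.44, −4.61 and −2.82. The 4 GR iKO water mice were at −1.43, −1.11, −1.05 and −0.92, and GR iKO DSS replicates 1, 3 and 4 at −5.56, −2.15 and −3.28. Every DSS mouse of either genotype was below every water mouse, and in both genotypes replicate 1 was the lowest. Within genotype, DSS and water mice did not overlap for 57.4% of all tested probes in Flox and 46.3% in GR iKO. Atoh1 fell by 3.30 ± 0.59 (SE) in Flox, to 10.2% of the water signal (adjusted p 0.000745), and by 2.54 ± 0.59 in GR iKO, to 17.2% (adjusted p 0.0052). On Flox DSS replicate 1 its signal was not well above background, so that value is near the floor of the array. The fall was called in all 25 alternative fits in both genotypes, and it had the same direction within each glass slide (a carrier of several arrays) that held both conditions, from −4.33 to −1.70 in Flox over 3 slides and from −4.13 to −1.11 in GR iKO over 3 slides.

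Spdef (probe A_51_P421790), an ETS-family factor that drives goblet cell maturation, was called lower on DSS in Flox and not in GR iKO. Flox water mice were at 2.34, 3.14, 2.30 and 1.63, and the 3 Flox DSS mice at −0.60, −0.66 and 1.27. GR iKO water mice were at 2.94, 2.67, 2.20 and 2.13, and the 3 GR iKO DSS mice at 2.60, 1.80 and 1.15. The Flox groups did not overlap, as held for 57.4% of all tested probes. GR iKO DSS replicate 1 lay within the range of the GR iKO water mice. Spdef fell by 2.35 ± 0.55 in Flox (adjusted p 0.00406), to 19.7% of the water signal, and the difference in GR iKO was −0.64 ± 0.55 (adjusted p 0.388). Whether DSS acted differently on Spdef in the genotypes is the interaction, which was 1.71 ± 0.78 with an unadjusted interval of 0.02 to 3.40 and was not called (adjusted p 0.332).

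The start regions of these factors and of mucus genes are shown as description only. Whether their motifs relate to the changes on DSS was not tested. RefSeq start windows of build GRCm38.p6, 250 bases before to 50 after the gene start, were given for 6 of the 10 genes (Muc2, Fcgbp, Itln1, Agr2, Spdef and Atoh1). They were searched on both strands for E-boxes (the sites of basic helix-loop-helix factors such as Atoh1), the ETS core, the forkhead site, the TATA box and the GR hexamer, spelled out beside each result, and capitals mark the matches other than the ETS core. All lines read 5′ to 3′ along the strand of the gene. The windows are Atoh1 at chr6:64728875-64729174 (plus strand), Spdef at chr17:27728902-27729201 (minus strand), Muc2 at chr7:141690090-141690389 (plus strand) and Fcgbp at chr7:28070986-28071285 (plus strand).
Atoh1: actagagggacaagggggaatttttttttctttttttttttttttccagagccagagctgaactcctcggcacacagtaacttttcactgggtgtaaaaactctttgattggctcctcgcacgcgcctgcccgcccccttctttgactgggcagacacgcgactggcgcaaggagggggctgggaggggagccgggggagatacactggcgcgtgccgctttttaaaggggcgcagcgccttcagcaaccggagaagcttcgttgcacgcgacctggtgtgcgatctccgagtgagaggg
Spdef: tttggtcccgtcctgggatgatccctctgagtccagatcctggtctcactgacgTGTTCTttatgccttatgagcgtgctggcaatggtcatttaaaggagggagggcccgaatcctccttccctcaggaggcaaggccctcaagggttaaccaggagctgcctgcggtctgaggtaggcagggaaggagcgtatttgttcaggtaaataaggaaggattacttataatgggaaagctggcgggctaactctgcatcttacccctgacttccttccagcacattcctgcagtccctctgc
Muc2: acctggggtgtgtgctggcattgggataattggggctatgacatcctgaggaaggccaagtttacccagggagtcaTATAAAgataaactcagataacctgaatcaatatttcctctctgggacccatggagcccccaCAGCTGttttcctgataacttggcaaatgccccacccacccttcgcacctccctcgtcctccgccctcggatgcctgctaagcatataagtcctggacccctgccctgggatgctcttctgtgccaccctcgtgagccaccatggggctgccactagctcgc
Fcgbp: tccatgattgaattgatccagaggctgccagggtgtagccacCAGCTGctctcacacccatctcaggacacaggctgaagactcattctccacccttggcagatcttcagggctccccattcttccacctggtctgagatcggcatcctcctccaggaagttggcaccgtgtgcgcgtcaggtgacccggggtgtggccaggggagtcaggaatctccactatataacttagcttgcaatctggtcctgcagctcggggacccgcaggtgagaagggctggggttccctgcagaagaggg
The E-box CAGCTG was found in Muc2 at position −112 from the start and in Fcgbp at −208, and in none of the other 4 windows, beside 16.3% of all 32851 promoter windows of this length. The E-box CAGATG was in none of the 6 windows, beside 17.2% of all windows. The sequence TATAAA, searched for as the TATA box, was found in Muc2 alone of the 6, at −174 (13.6% of all windows). TATA boxes spelled otherwise were not searched for. The GR hexamer, AGAACA, was found in Spdef alone (19.0% of all windows), on the other strand at −196. The forkhead site, GTAAACA, was in none of the 6 (3.65% of all windows), and the ETS core, GGAA, was in all 6 (96.0% of all windows), so that it sets no gene apart. The longer GR element, this hexamer and its reverse complement with 3 bases between, was in none of the 6 and in 3 of all windows.

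Agr2 (probe A_51_P209122), the disulfide isomerase that Muc2 needs to fold, was tight on water. The 4 Flox water mice were at 7.40, 7.71, 7.46 and 7.19, and the Flox DSS mice at 4.86, 4.99 and 7.75. GR iKO water mice were at 7.58, 7.73, 7.61 and 7.42, and the GR iKO DSS mice at 6.16, 6.73 and 6.80. Flox DSS replicates 1 and 2 were far below the water mice and replicate 4 was just above them, whereas all GR iKO DSS mice were below all GR iKO water mice. In GR iKO, 46.3% of all tested probes likewise showed no overlap of DSS and water mice. Agr2 fell by 1.57 ± 0.46 in Flox (adjusted p 0.0146), a call that was lost without Flox DSS replicate 1 (adjusted p 0.13) or replicate 2 (adjusted p 0.118). The difference in GR iKO was −1.02 ± 0.46 and was not called (adjusted p 0.101), although without Flox DSS replicate 4, which enters the shared spread, it was (adjusted p 0.00178).

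Fcgbp (A_51_P380078), the large Fc gamma binding protein that is cross-linked to Muc2 in mucus, was the only secreted product called in Flox on the 75th percentile scale. Flox water mice were at 7.97, 7.35, 7.45 and 7.30, and Flox DSS mice at 5.01, 4.47 and 7.71. GR iKO water mice were at 7.84, 8.25, 7.27 and 7.39, and GR iKO DSS mice at 5.17, 8.12 and 5.87. Flox DSS replicate 4 and GR iKO DSS replicate 3 lay inside the range of the water mice and the other 4 DSS mice lay below it. The Flox difference was −1.78 ± 0.68 (adjusted p 0.0477), next to the threshold, and it was called in 11 of 27 alternatives, with an adjusted p of up to 0.279 (0.0762 with the replicate block and 0.0701 with the slide as a block). The other probe, A_52_P419059, fell by 2.06 in Flox (adjusted p 0.0392). In GR iKO the difference was −1.31 ± 0.68 (adjusted p 0.151).

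Muc2 (A_51_P128320), the mucin that forms the gel, was not called in either genotype. Flox water mice were at 6.84, 7.10, 6.69 and 6.18, and Flox DSS mice at 4.91, 5.30 and 7.09. GR iKO water mice were at 7.42, 7.40, 7.12 and 6.54, and GR iKO DSS mice at 5.40, 7.52 and 6.43. The pattern over the mice was that of Fcgbp, with Flox DSS replicate 4 and GR iKO DSS replicate 3 at or above the middle of the water mice. The difference was −0.94 ± 0.53 in Flox (95% interval −2.08 to 0.21, adjusted p 0.164) and −0.67 ± 0.53 in GR iKO (−1.82 to 0.48, adjusted p 0.342). The 3 probes of Muc2 gave −1.01 to −0.64 in Flox and −0.67 to −0.22 in GR iKO.

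Tff3, Clca1 and Zg16 showed the same split between mice. Tff3, a trefoil peptide that takes part in mucosal repair, was at 7.30 to 7.87 in Flox water mice and at 5.78, 5.78 and 8.57 in Flox DSS mice. In GR iKO it was at 7.49 to 7.93 on water and at 6.39, 8.56 and 7.15 on DSS. GR iKO DSS replicate 3 was thus above its water mice and the other 2 below them. Zg16, a lectin that binds Gram-positive bacteria, was at 8.34 to 8.95 in Flox water mice and at 7.75, 7.25 and 10.30 in Flox DSS mice. Clca1, a metalloprotease that works on the Muc2 gel, was at 8.05 to 8.47 in Flox water mice and at 7.34, 6.33 and 9.31 in Flox DSS mice. In each of these 3 genes Flox DSS replicate 4 had the highest level of all Flox mice on the 75th percentile scale. That array also had the lowest 75th percentile. Before scaling, its Tff3 and Clca1 signals were 99350 and 166488 intensity units, below every Flox water mouse (lowest 151805 and 250121). Its Zg16 signal of 330940 lay within their range (325802 to 413666). Whether this mouse gained RNA of these genes cannot be told from the scaled levels. In GR iKO, Zg16 was at 8.31 to 8.95 on water and at 7.66, 9.34 and 8.57 on DSS, and Clca1 at 8.26 to 8.75 on water and at 6.59, 8.97 and 7.60 on DSS. GR iKO DSS replicate 3 was above, and replicate 1 below, all GR iKO water mice for all 3 genes. The Flox differences were −0.94 (adjusted p 0.172) for Tff3, −0.69 (adjusted p 0.306) for Clca1 and −0.31 (adjusted p 0.668) for Zg16. In GR iKO they were −0.30 (adjusted p 0.69), −0.80 (adjusted p 0.257) and −0.24 (adjusted p 0.757). Intervals of these genes allow a fall of more than 1 log2 unit as well as no change. Each of the 3 was called lower in Flox in 5 of 26 alternatives. In the deposited value table the Flox differences were −1.22 for Tff3 (adjusted p 0.0251), −1.18 for Clca1 (adjusted p 0.015) and −0.87 for Zg16 (adjusted p 0.0308). With normexp and quantile normalization they were −1.19, −1.03 and −0.96 (highest adjusted p 0.0269). Clca1 was also called in GR iKO under both (adjusted p 0.0429 and 0.0364). Without Flox DSS replicate 4 the Flox differences were −1.87 for Tff3 (adjusted p 0.00456), −1.52 for Clca1 (adjusted p 0.0219), −1.24 for Zg16 (adjusted p 0.0292) and −1.60 for Muc2 (adjusted p 0.0298). Without Flox DSS replicate 1 the Zg16 difference was 0.04, and without replicate 2 it was 0.28.

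**Figure D2:**
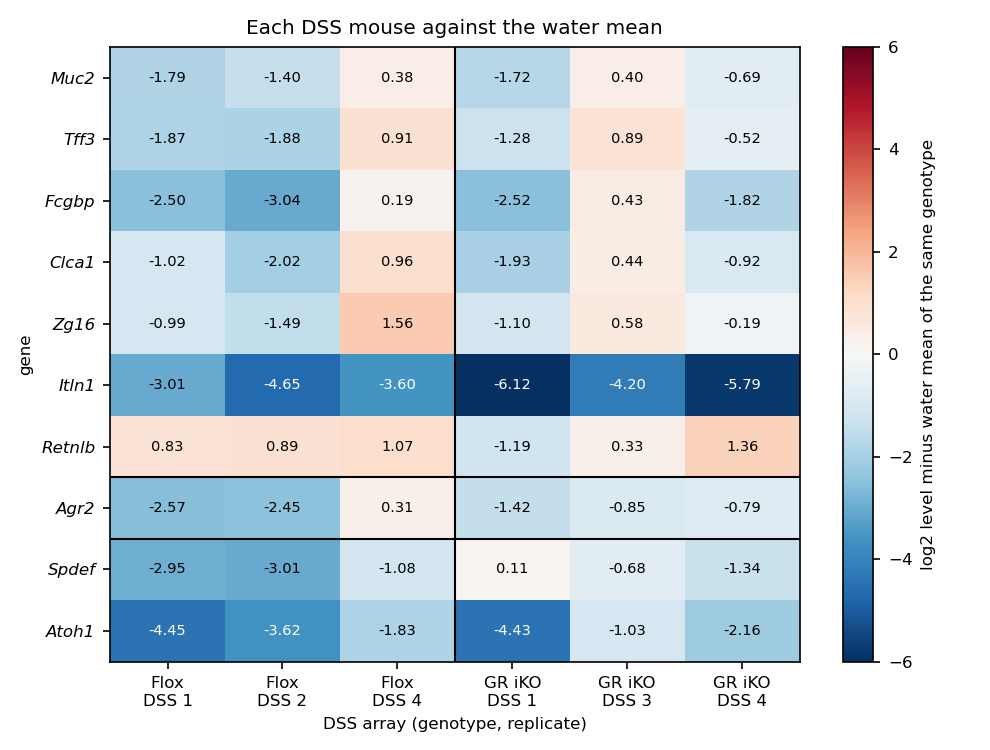
Level of each gene (rows, with secreted products, Agr2 and transcription factors separated by lines) in each of the 6 DSS mice (columns), as log2 difference from the water mean of the same genotype (colour and printed value). Flox DSS 4 and GR iKO DSS 3 are above 0 for Muc2, Tff3, Fcgbp, Clca1 and Zg16, while Atoh1 is below 0 in all 6 mice.

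On the 75th percentile scale, the median of the 7 products minus the water mean of the genotype was −1.79 and −1.88 in Flox DSS replicates 1 and 2. In replicate 4, the array with the lowest 75th percentile, it was 0.91. In the GR iKO DSS mice it was −1.72 in replicate 1, 0.43 in replicate 3 and −0.69 in replicate 4. For 6 of the 10 genes, Flox DSS replicate 4 and GR iKO DSS replicate 3 were the highest 2 of the 6 DSS mice, and the exceptions were Itln1, Retnlb, Agr2 and Spdef. The mean level of the 11 epithelial markers, relative to the water mean of the genotype, was −0.42, −0.69 and 0.02 in Flox DSS replicates 1, 2 and 4, and −0.19, 0.11 and 0.24 in GR iKO DSS replicates 1, 3 and 4.

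The spread between mice on DSS, pooled over the genotypes, was larger for every mucus barrier gene than for most probes. The smallest, that of Retnlb, was at percentile 91.5 of all tested probes. This did not hold in each genotype, since the SD of Retnlb was 0.13 in Flox DSS and 1.28 in GR iKO DSS mice. That of Agr2 was 1.63 in Flox DSS and 0.35 in GR iKO DSS mice. The pooled within-group SD on DSS was 1.64 for Fcgbp, 1.55 for Atoh1, 1.38 for Tff3, 1.36 for Clca1, 1.30 for Zg16, 1.18 for Agr2 and 1.11 for Muc2, against a median of 0.34 over all tested probes. On water the SD of Agr2 was 0.18, that of Atoh1 0.19 and that of Clca1 0.20, close to the median of 0.19, whereas Tff3, Zg16, Fcgbp and Muc2 were above it at 0.23, 0.29, 0.38 and 0.40. For these 7 genes the SD on DSS was 2.79 to 8.24 times that on water, whereas the median ratio of all probes was 1.77. Spdef, with an SD of 0.52 on water and 0.93 on DSS, had a ratio of 1.80. Itln1 and Retnlb ran the other way, with an SD of 1.90 and 1.97 on water and 0.93 and 0.91 on DSS.

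The fall of Atoh1 on DSS was larger than that of Muc2, Tff3, Clca1 and Zg16 in the same mice, by an amount that depended on the normalization. On the DSS arrays Atoh1 gave 9.93 to 126 intensity units, against 12952 or more for these 4 products. The part of this dim signal in the excess was not tested. The change of Atoh1 minus that of each other gene was tested by exact permutation of the DSS and water labels within genotype (1225 permutations), for 8 genes and likewise for Spdef, 16 tests in all, a set chosen with these values known. Atoh1 fell further than Zg16 by 2.99 in Flox and 2.30 in GR iKO, with an exact p of 0.000816, the smallest these permutations can give, and an adjusted p of 0.00327 over the 16 tests. The same p was reached against Muc2, Tff3 and Clca1, with mean excess falls over the genotypes of 2.11, 2.29 and 2.17. All these tests share the Atoh1 values and the mice, so they are not independent of each other. Against Agr2 the mean excess was 1.62 (adjusted exact permutation p 0.00522), against Fcgbp 1.37 (adjusted exact p 0.0131) and against Retnlb 3.47 (adjusted exact p 0.0131). In these 7 cases the difference was below 0 in 6 of 6 DSS mice. The tests were repeated under 2 other normalizations, chosen after seeing the data. In the deposited value table all 7 passed again (highest adjusted exact permutation p 0.0131). With normexp and quantile normalization the mean difference of Atoh1 was −0.98 from Muc2, −0.98 from Tff3, −0.75 from Clca1 and −1.03 from Zg16, and all 4 passed (highest adjusted exact p 0.0131). On that scale it was −0.15 from Fcgbp (adjusted exact p 0.749), −0.38 from Agr2 (adjusted exact p 0.26) and −2.34 from Retnlb (adjusted exact p 0.0653), and none of these 3 passed. Against Itln1 the difference was 1.64 in the other direction and did not pass (adjusted exact p 0.167). The difference of Spdef from Muc2, Tff3, Clca1, Fcgbp, Zg16, Retnlb and Agr2 did not pass (adjusted exact p 0.074 to 0.933), and Spdef fell less than Itln1 by a mean of 3.07 (adjusted exact p 0.0131), which did not pass with normexp and quantile normalization (2.02, adjusted exact p 0.0653).

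Itln1 (A_51_P147987) had the largest differences of the 10 genes on DSS and, on water, levels that differed widely between mice. Flox water mice were at 1.52, 0.61, −0.40 and −1.82, and Flox DSS mice at −3.03, −4.67 and −3.62. GR iKO water mice were at 2.74, 3.31, −1.18 and −0.51, and GR iKO DSS mice at −5.03, −3.11 and −4.70. Water and DSS mice did not overlap in either genotype, as held for 57.4% of all tested probes in Flox and 46.3% in GR iKO. On the DSS arrays Itln1 gave 19.0 to 64.6 intensity units, which is dim but was well above background on each. Itln1 fell by 5.37 ± 1.60 in GR iKO, to 2.42% of the water signal (adjusted p 0.0189), and the Flox difference of −3.75 ± 1.60 did not pass (adjusted p 0.0714). The GR iKO call was lost without GR iKO DSS replicate 1 or replicate 4 (adjusted p up to 0.0778), and the Flox difference was called in 8 of 26 alternatives, the replicate block among them (adjusted p 0.013). Both differences were negative within every slide, from −5.28 to −1.80 in Flox and from −7.77 to −1.93 in GR iKO.

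Retnlb (A_51_P428360) was not called in either genotype. Flox water mice were at 6.38, 4.18, 3.65 and 2.46, and Flox DSS mice at 5.0, 5.06 and 5.24. GR iKO water mice were at 6.89, 7.28, 2.48 and 4.44, and GR iKO DSS mice at 4.08, 5.60 and 6.63. The Flox DSS mice lay close together in the middle of a wide water range, and all 3 GR iKO DSS mice lay within the range of their water mice. The difference was 0.93 ± 1.66 in Flox (95% interval −2.67 to 4.53) and 0.17 ± 1.66 in GR iKO (−3.43 to 3.77), so that changes of several log2 units in either direction were not detectable with these mice.

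**Figure D3:**
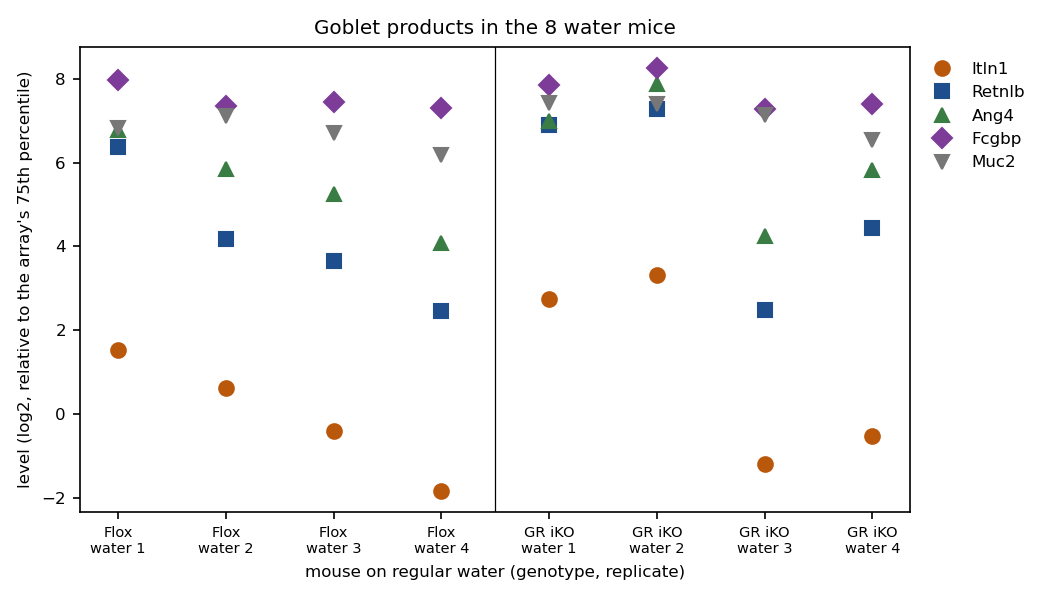
Levels of 5 goblet products (vertical axis, log2 over the array's 75th percentile) in the 8 mice on regular water, in the order of genotype and replicate number. Itln1, Retnlb and Ang4 are high together in Flox 1 and GR iKO 1 and 2 and low together in Flox 4 and GR iKO 3. Muc2 spans a narrower range, 6.18 to 7.42, and is also lowest in Flox 4 and highest in GR iKO 1 and 2.

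On water, Itln1 and Retnlb were high in the same mice. Flox replicate 1 and GR iKO replicates 1 and 2 had the 3 highest levels of both genes, and Flox replicate 4 and GR iKO replicate 3 the 2 lowest. Over the 8 water mice, Pearson's r between them was 0.965 (exact permutation p 0.000273, adjusted p 0.0123 over the 45 pairs of the 10 genes) and Spearman's rho 0.929 (exact permutation p 0.00223, adjusted p 0.10). Without the 2 mice farthest from the median of Itln1, r was 0.921. Within genotype r was 0.948 in Flox and 0.970 in GR iKO (n = 4 each, not tested), and within the 4 slides, each with a Flox and a GR iKO water mouse, the sign of the difference was the same for both genes in 4 of 4. Fcgbp varied with both by Pearson's r, 0.929 with Retnlb (adjusted exact permutation p 0.0218) and 0.905 with Itln1 (adjusted exact p 0.0399), as did Muc2 with Agr2 (0.898, adjusted exact p 0.0399). By Spearman's rho no pair passed (lowest adjusted exact p 0.10). Ang4, an antimicrobial ribonuclease of goblet and Paneth cells, was at 6.77, 5.86, 5.24 and 4.08 in the Flox water mice and at 6.99, 7.88, 4.24 and 5.83 in the GR iKO water mice, the same order of mice as Itln1 within each genotype. The Paneth cell markers other than Itln1 that the array measured were Lyz1 and Mmp7, and the part of cell makeup in these differences was not tested.

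Between genotypes, none of the 10 genes passed the test on water or on DSS. On water, 0 of 10 were called by limma (0 at an unadjusted p under 0.05, as were 3.32% of all probes), beside 0.0237% of all tested probes, and the genotypes overlapped for all 10, whereas 2.26% of all probes did not overlap. The difference of GR iKO from Flox on water was 0.42 for Muc2 (95% interval −0.27 to 1.11), 0.02 for Tff3 (−0.69 to 0.73), 0.02 for Zg16 (−0.69 to 0.72), 0.17 for Clca1 (−0.52 to 0.87), 0.15 for Agr2 (−0.46 to 0.75), 0.17 for Fcgbp (−0.72 to 1.07), 0.14 for Spdef (−0.58 to 0.85) and −0.13 for Atoh1 (−0.91 to 0.64). The intervals of these 8 genes reach no further than 1.11 log2 units. Those of Itln1 (1.11, −0.98 to 3.20) and Retnlb (1.10, −1.06 to 3.27) are far wider.

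On DSS, 0 of 10 were called by limma (1 at an unadjusted p under 0.05, as were 17.8% of all probes), beside 0.0203% of all tested probes. The mean was higher in GR iKO for 9 of 10 genes on DSS, as it was on water, and for 6 and 7 of 10 when scaled to the epithelial markers. The groups overlapped for all 10 genes, whereas 22.8% of all probes did not overlap. Spdef differed most, by 1.84 ± 0.70 (unadjusted 95% interval 0.31 to 3.37, adjusted p 0.203), and Flox DSS replicate 4 lay within the GR iKO range. It was called when all arrays shared 1 spread and when each array had a quality weight (lowest adjusted p 0.0241). Slides 1 and 4 held both DSS groups, and there the Spdef difference was 2.40 on the slide of Flox DSS replicate 1 and −0.12 on that of Flox DSS replicate 4. Agr2 differed by 0.70 ± 0.59 (adjusted p 0.6) and Muc2 by 0.69 ± 0.68 (adjusted p 0.658). The interaction was called for 0 of 10 genes by limma (1 at an unadjusted p under 0.05, as were 14.9% of all probes), beside 0.0% of all probes. All comparisons of this kind share their DSS arrays with those above.

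**Figure D4:**
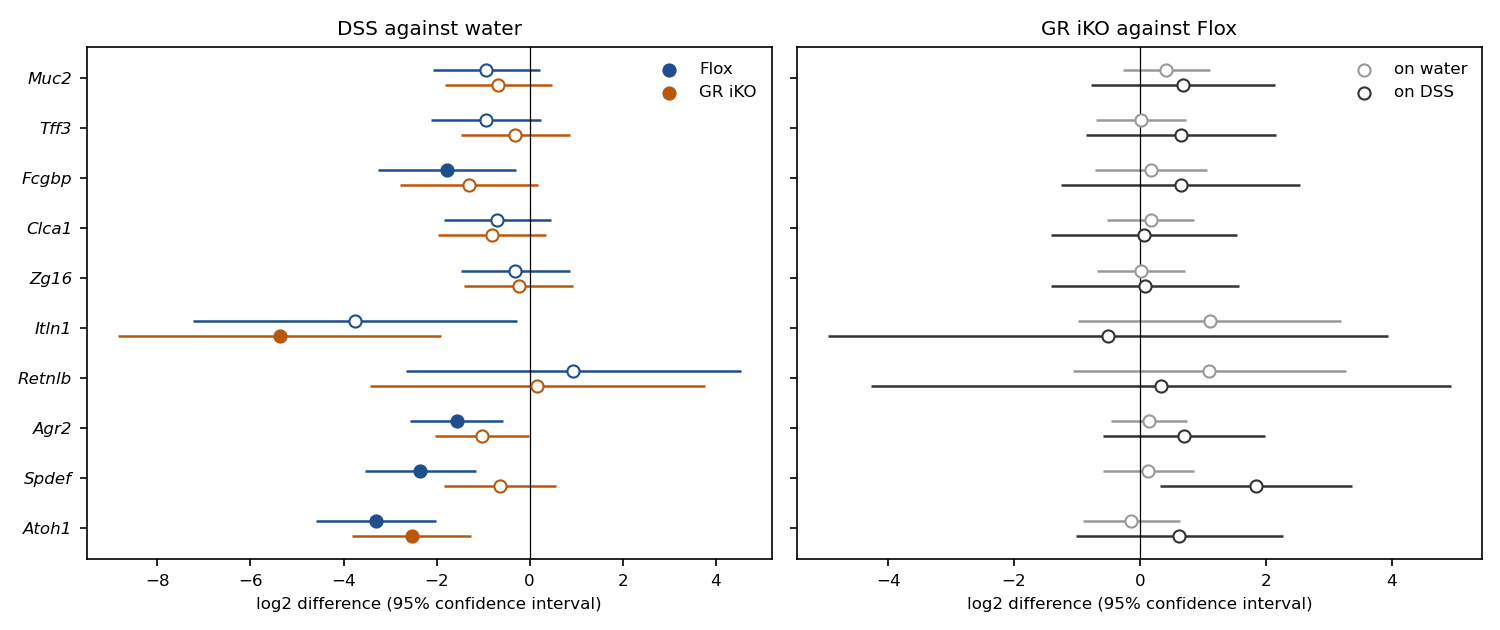
Log2 difference with its unadjusted 95% confidence interval (horizontal axis) for the 10 genes (rows), for DSS against water in each genotype (left) and GR iKO against Flox in each condition (right). Filled points passed an adjusted p of 0.05, which 4 genes did in Flox, 2 in GR iKO and 0 between genotypes.

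Markers of cell types of the colon also differed between water and DSS mice. All 11 epithelial markers were measured, and their summed signal, in units of the 75th percentile probe, was 1237 to 1505 in Flox water, 973 to 1681 in Flox DSS, 1285 to 1522 in GR iKO water and 1262 to 1749 in GR iKO DSS colons. On DSS, 5 epithelial markers were called lower and 1 higher in Flox, where Epcam fell by 0.69 (adjusted p 0.00738), and 1 lower and 1 higher in GR iKO, where Epcam differed by −0.08 (adjusted p 0.748). The most abundant, Krt8, Lgals4 and Krt19, differed by 0.12, 0.21 and −0.88 in Flox, of which that of Krt19 was called (adjusted p 0.00347). Set to the mean of the epithelial markers in place of the 75th percentile, Atoh1 still fell, by 2.94 (adjusted p 0.000665) in Flox and by 2.59 (adjusted p 0.00293) in GR iKO, as did Spdef by 1.98 in Flox (adjusted p 0.0215), Agr2 by 1.2 in Flox (adjusted p 0.0316) and Itln1 by 5.42 in GR iKO (adjusted p 0.0386). On that scale the Fcgbp difference in Flox was −1.42 and was not called (adjusted p 0.0954).

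Of 8 smooth muscle markers, 7 were called higher on DSS in Flox and 0 in GR iKO, and their summed signal was 574 to 891 in Flox water, 1369 to 2441 in Flox DSS, 557 to 876 in GR iKO water and 440 to 1042 in GR iKO DSS colons. The highest sum was in Flox DSS replicate 4, and whether the genotypes differed in this was not tested for the list. Tagln, Cnn1 and Myl9 were the most abundant. All 8 neutrophil markers were measured, 7 of them called higher in Flox and 8 in GR iKO. Their sum was at most 0.572 on any water array, 24.4 to 67.3 in Flox DSS and 84.7 to 291 in GR iKO DSS colons, lowest among the DSS mice of each genotype in Flox DSS replicate 4 and GR iKO DSS replicate 3. S100a9, S100a8 and Retnlg led that list, and no Flox water array measured Cxcr2, Ngp or Mmp8 well above background, nor any GR iKO water array Cxcr2, Ltf or Mmp8. Of the 6 enteroendocrine markers, led by Pyy, Chgb and Chga, 4 were called lower and 1 higher in Flox, and 0 lower and 1 higher in GR iKO. Their sum was 58.6, 61.7 and 169 in Flox DSS replicates 1, 2 and 4 and 128, 228 and 67.8 in GR iKO DSS replicates 1, 3 and 4, highest in the same pair of mice as most goblet products. Of the 9 colonocyte markers, led by Krt20, Aqp8 and Car1, 1 was called lower and 1 higher in Flox, and 3 lower and 1 higher in GR iKO. Their sum was 433, 296 and 563 in the Flox DSS mice and 291, 570 and 546 in the GR iKO DSS mice, again highest in that pair. Other lists did not follow the pair. In the same order of mice, the tuft cell sum (Dclk1, Trpm5 and Hpgds most abundant) was 0.895, 0.931, 0.866, 0.347, 1.09 and 0.549. The Paneth cell sum (Lyz1, Itln1 and Mmp7) was 22.1, 25.1, 20.2, 42.5, 24.0 and 21.2, and the epithelial sum 1150, 973, 1681, 1262, 1461 and 1749. All 6 fibroblast markers, led by Dcn, Col3a1 and Col1a2, were called higher in both genotypes, and 4 of 7 macrophage markers, led by Cd14, C1qa and Adgre1, in Flox and 6 of 7 in GR iKO. Hoxb13, which marks the distal colon, fell by 5.70 in Flox (adjusted p 0.000156) and by 2.83 in GR iKO (adjusted p 0.0157), while the other 3 positional genes measured were not called. The part of these shifts in the goblet gene values was not tested.

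The other genes of the goblet programme were taken from lists by role. Their counts stand beside the 25.4% of all probes called lower in Flox and the 19.8% in GR iKO. The shares called higher were 21.8% and 19.1%. The interaction was called for 0 genes of these lists, so that unequal counts in the genotypes do not show that the genotypes differed. Of the mucin glycosylation genes, 15 of 18 were measured, and 12 were called lower and 0 higher on DSS in Flox, and 4 lower and 1 higher in GR iKO. Their median difference was −0.93 in Flox and −0.30 in GR iKO. Galnt5, which starts O-glycan chains, fell by 2.86 (adjusted p 0.000521) in Flox and by 2.14 (adjusted p 0.0045) in GR iKO. St3gal6, a sialyltransferase, fell by 2.57 (adjusted p 2.29e-05) and 2.11 (adjusted p 0.00014), and Slc26a2, a sulfate transporter, fell by 1.33 in Flox (adjusted p 0.0234). Fut2, the fucosyltransferase of the gut epithelium, rose in GR iKO by 1.71 (adjusted p 0.00163), a call lost under spike-in scaling (adjusted p 0.182). The call of Slc26a2 was lost without Flox DSS replicate 1 or 2 and under epithelial scaling (adjusted p up to 0.16).

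All 10 genes of secretory stress and folding were measured, and 6 were called lower in Flox and 5 in GR iKO, with 0 higher in either and a median of −0.69 in both. Ern2, a stress sensor of mucus-secreting epithelia, fell by 3.35 in Flox (adjusted p 4.7e-05) and by 2.37 in GR iKO (adjusted p 0.000769). The membrane-bound transcription factors Creb3l1 and Creb3l4 fell by 3.21 (adjusted p 3.31e-06) and 2.83 (adjusted p 4.82e-05) in Flox, and by 2.28 (adjusted p 3.61e-05) and 2.48 (adjusted p 0.000193) in GR iKO.

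Several other goblet products had larger differences on DSS than Muc2. Of 14 measured out of 15 listed, 7 were called lower in Flox and 4 in GR iKO, and 0 higher. Reg4, a lectin of distal colonic secretory cells, fell by 8.18 ± 0.88 in Flox (adjusted p 2.34e-05) and by 6.84 ± 0.88 in GR iKO (adjusted p 0.000126). Its mean level went from 5.25 to −2.93 in Flox and from 5.71 to −1.13 in GR iKO, and it was called in all 26 alternatives in both. Best2, the bicarbonate channel of colonic goblet cells, fell by 4.69 (adjusted p 0.00448) in Flox and by 3.69 (adjusted p 0.0203) in GR iKO. Ang4 fell by 4.35 (adjusted p 0.0105) and 5.66 (adjusted p 0.00307). The Flox call of Ang4 was lost without Flox DSS replicate 2 (adjusted p 0.0794), and the GR iKO call of Best2 without GR iKO DSS replicate 1 or 4 (adjusted p up to 0.121). The membrane mucins, which surface cells carry rather than secrete, had 4 of 6 members measured and 0 called by limma in either genotype, with medians of −0.48 and 0.25.

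**Figure D5:**
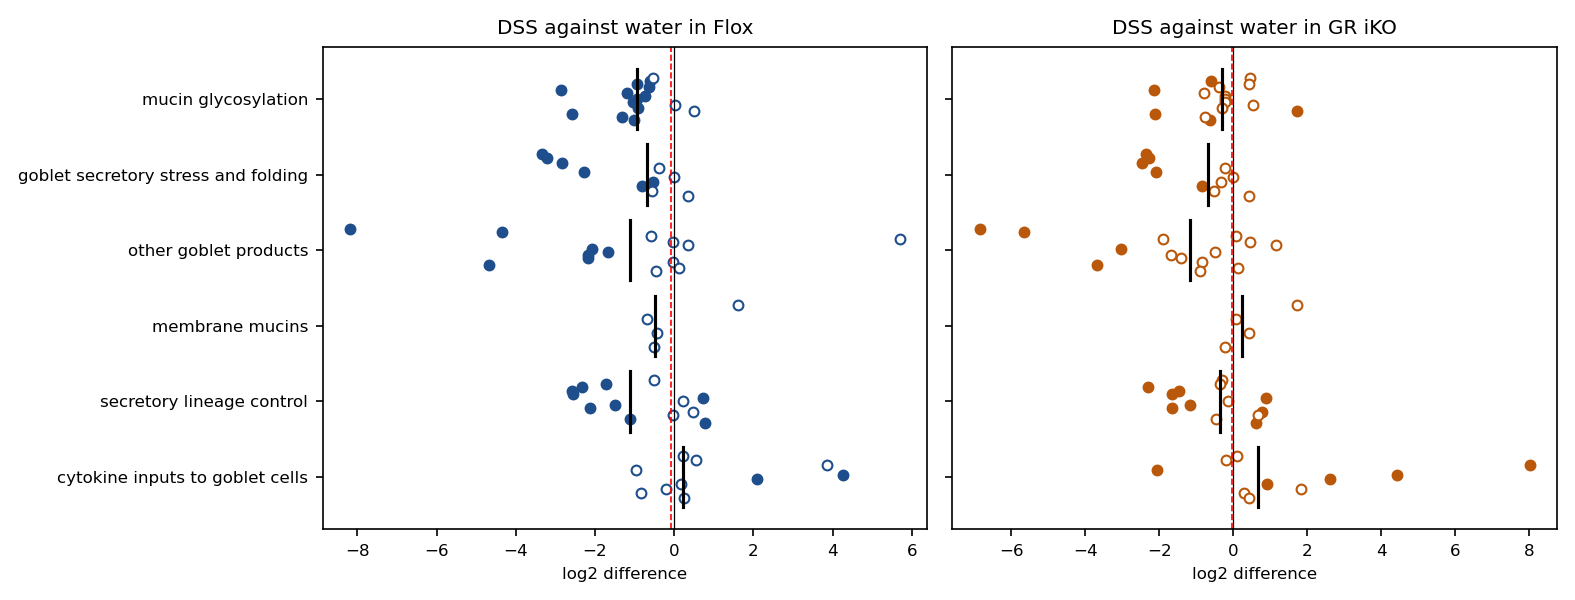
Log2 difference on DSS (horizontal axis) of each measured gene of 6 lists (rows) in Flox (left) and GR iKO (right). Filled points passed an adjusted p of 0.05, black bars are list medians, and the dashed line is the median of all tested probes (−0.09 and −0.02). Reg4 is the leftmost point of both panels, at −8.18 and −6.84.

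Among 13 genes of secretory lineage control, all measured, 7 were called lower and 2 higher in Flox, and 5 lower and 3 higher in GR iKO. Foxa2, a forkhead factor of secretory cells, fell by 2.32 (adjusted p 0.00254) and 2.30 (adjusted p 0.00368). Foxa3 and Gfi1, the latter acting downstream of Atoh1, fell in Flox by 2.58 (adjusted p 0.000605) and 2.56 (adjusted p 0.00273), and Gfi1 fell in GR iKO by 1.66 (adjusted p 0.0339), a call lost in 6 of 26 alternatives (adjusted p up to 0.158), which were the slide and replicate blocks and leaving out GR iKO DSS replicate 1 or 4 or GR iKO water replicate 1 or 2. Hes1, the Notch target that represses Atoh1, fell as well, in GR iKO by 1.66 (adjusted p 0.000348). Foxa1 was the only gene of these lists called between genotypes, 1.41 higher in GR iKO than in Flox on DSS (adjusted p 0.0443), a call held in 10 of 26 alternatives.

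Of 10 cytokine and receptor genes that act on goblet cells, 2 were called higher in Flox, and 4 higher and 1 lower in GR iKO. Of all tested probes, 21.8% were called higher in Flox and 19.1% in GR iKO, so the Flox count was near that share. The alarmin Il33 rose by 4.25 (adjusted p 2.37e-06) in Flox and by 4.43 (adjusted p 2.3e-06) in GR iKO. Il4ra, the receptor chain shared by IL-4 and IL-13, rose by 2.08 (adjusted p 1.41e-05) and 2.62 (adjusted p 5.51e-06) on the 75th percentile scale, but differed by −0.24 in Flox (adjusted p 0.61) under spike-in scaling. Il22 was not well above background on any GR iKO water array and was at least 51.2-fold higher in GR iKO DSS colons (adjusted p 0.00215), a bound set by the dimmest probe still above background on each water array. In Flox its difference of 3.87 was not called (adjusted p 0.0647), and the genotypes were not shown to differ.

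The genes most like a member over the 14 arrays were found by the root mean square difference after each gene was set to 0 at its Flox water mean. For Muc2 they were Rab27b (0.37 log2 units) and Tspan13 (0.37), for Agr2 Tmprss2 (0.31) and Lypd6b (0.32), for Spdef Epb41l5 (0.42) and Ankrd22 (0.43), and for Atoh1 Hpd (0.41) and Nxpe4 (0.42). For Fcgbp they were Pramel25 (0.23) and Capn9 (0.35), for Itln1 Ang2 (0.66) and Ang4 (0.76), and for Retnlb Krtap21-1 (0.79) and Chst13 (0.90), while Tff3, Clca1 and Zg16 were left out because their group means spanned less than 1 log2 unit. Ang2 and Ang4 belong to a family of near-identical ribonucleases whose probes may not tell its members apart. All these genes are named as their probes are annotated, and whether each probe reads only that gene was not tested.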

How the data were processed

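Whole colon RNA of 14 mice was hybridised to 1-colour Agilent arrays. The authors scanned the arrays and deposited the output of Agilent Feature Extraction (12.0.0.7 per the file headers), whose processed signal is a background-subtracted intensity, and a value table on a log2 scale, for which the submitters' processing notes name Partek 6.6. Each of the 45018 spots per array was read, control spots (1639) and spots marked as outliers were left out, spots of a probe were averaged, and log2 intensity minus the 75th percentile of the array was taken. No spot was saturated. RefSeq accessions matched a RefSeq gene in 28223 of 29245 cases. Probes well above background on at least 3 arrays were fitted in limma 3.58.1 (R 4.3.3) by group means over all 14 arrays with weights estimated for water and DSS arrays (variance ratio 3.39), and p-values were adjusted by Benjamini-Hochberg over 29523 probes.

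For genes with several probes a fixed main probe stood for the gene. Where labels do not state separate litters or cages, p-values measure the spread between these mice. Exact permutation tests used scipy 1.17.1 and were two-sided. The code was tested on simulated data. The members and lists were chosen with earlier results of these data known. Named beside the 10 genes and Nr3c1 were, per list and comparison, the 3 called genes with the largest difference, the 2 genes most like each member, Epcam and the 3 most abundant markers of a cell type list. Reg4 and Ang4 per-mouse values, and markers not above background, were chosen after values were seen. The alternatives changed the spread, arrays, weights, prior, normalization, scaling, filter, slide, replicate block, probe and each array in turn. The normexp alternative used the median signal column. Alternatives for Nr3c1, the lists and the differences of factors from products were chosen after seeing the data.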

Additional observations from a re-analysis of the deposited data

Results flagged for a closer look

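Within the groups of 4 water mice, a single mouse stood apart from the others in 2 of 26 sets of values checked, where chance alone marks about 1 in 20 groups. Clca1 was at 8.05 in Flox water replicate 2 and at 8.44 to 8.47 in the other Flox water mice, a gap of 0.929 of the range of the group. Zg16 was at 8.31 in GR iKO water replicate 1 and at 8.86 to 8.95 in the other GR iKO water mice, a gap of 0.868 of the range. Both exceed Dixon's 95% critical value for groups of 4.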

How the results depend on the processing

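Of 130 counts of called genes under 26 alternatives, 115 stayed within 1.5 times the reported one. These include the counts between genotypes and of the interaction, reported as 0, which stayed where they were 0 again. The DSS counts moved more often. In Flox, 4 genes were called on DSS, and 9 with a quality weight for each array, 7 in the deposited value table, 7 with normexp and quantile normalization, 9 under spike-in scaling, and 2 to 8 with an array left out. In GR iKO, 2 were called, 6 under spike-in scaling, 1 with only probes well above background on all arrays (a filter that removed Atoh1, leaving 9 genes), and 1 to 3 with an array left out (1 without GR iKO DSS replicate 1 or 4). Between genotypes on DSS, 0 were called, 1 with 1 shared spread (Spdef), 2 with quality weights (Agr2 and Spdef), and 0 to 1 with an array left out (Agr2 without Flox DSS replicate 4). The interaction gave 0, and 3 under spike-in scaling (Tff3, Agr2 and Spdef). On water the genotypes gave 0 under every alternative run. The cause of the other shifts was not tested. With the replicate number as a block the counts were 4 in Flox, where Fcgbp lost its call (adjusted p 0.0762) and Itln1 gained one (adjusted p 0.013), and 2 in GR iKO. Between arrays of the same number, correlations of the deviations from group means ran from −0.227 to 0.31 (median 0.099, 9 of 18 over 0.1). Whether the numbers pair the mice cannot be told from these values. Of 1310 single-gene values, 1247 stayed on their side of the threshold, 42 gained a call and 21 lost it, and 0 called values of the 10 genes changed sign. Il4ra in Flox was −0.24 under spike-in scaling (adjusted p 0.61), against 2.08. For the lists, tried after seeing the data, the genes called on DSS numbered 4 to 15 in Flox and 4 to 11 in GR iKO for glycosylation (12 and 5 as reported), 4 to 10 and 4 to 7 for stress and folding (6 and 5), 3 to 12 and 2 to 9 for other products (7 and 4), 0 to 3 and 0 to 1 for membrane mucins (0 and 0), 7 to 13 and 2 to 10 for lineage control (9 and 8), and 2 to 8 and 3 to 6 for cytokine genes (2 and 5). With 3 DSS mice a group, differences of 1 log2 unit and, in several genes, well over that could not be told from the spread between mice. In GR iKO, Agr2 at −1.02 and Fcgbp at −1.31 were not called, nor was Itln1 at −3.75 in Flox. Between genotypes on DSS, Spdef at 1.84 was not called.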
